A study of Mus musculus with 12 samples.

Results

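CD11c- interstitial macrophages (IMs) and alveolar macrophages (AMs) from tumor-bearing lungs were compared by RNA-Seq, with 4 libraries of each population, which are 8 of the 12 libraries of the series. The members were taken by their labels: the WT and *Il9r-/-* libraries numbered 1 and 2 of each population, so 2 libraries in each of 4 groups. The other 4 libraries, of CD11c+ IMs, a population that carries CD11c but little Siglec-F, enter only as values set beside these. All mice were on the C57BL/6 background and carried B16, a transplantable mouse melanoma line that was injected into the blood and grows in the lung. The *Il9r-/-* mice lack the receptor of interleukin 9 in every cell of the body, so every host cell of those lungs, not the macrophages alone, carries the deletion. By the methods, mice of both sexes were used between 8 and 16 weeks of age, lungs were perfused and taken whole, and live MerTK+ CD64+ cells were sorted, AMs and IMs being told apart by Siglec-F and CD11c. No sex or age is given for any single library, and the sources do not say how many mice went into one.

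AMs live in the air space, where they take up and break down surfactant lipids. Their identity is held by GM-CSF and TGF-beta signals and by the nuclear receptor PPAR-gamma. IMs live in the tissue between the alveoli and the vessels, are replenished from blood monocytes to a larger extent, and are known for complement C1q, MHC class II and scavenger receptors. Steady-state lungs hold IMs with *Lyve1*, *Folr2* and *Cd163* near vessels and IMs with more MHC class II and *Cx3cr1* near nerves and airways.

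The 8 libraries held 30259066 to 42020021 counted reads each, and 14648 genes were tested. Levels are given as CPM, the counts of a gene scaled to a fixed total with library sizes adjusted by the trimmed mean of M values (TMM), and each row of 4 values gives WT 1, WT 2, *Il9r-/-* 1 and *Il9r-/-* 2 in that order. The genes for CD11c and Siglec-F matched the labels for the populations. *Mertk* was lower in CD11c- IMs although both populations were gated on MerTK, and the cause was not tested. *Itgax*, which encodes CD11c, stood at 787, 805, 493 and 607 CPM in AMs and 27.1, 53.1, 40.5 and 37.0 CPM in CD11c- IMs, against 308 to 443 CPM in CD11c+ IMs. *Siglecf* stood at 624, 671, 693 and 647 CPM in AMs and 10.5, 17.003, 32.4 and 19.5 CPM in CD11c- IMs. *Mertk*, an efferocytosis receptor on which all cells were gated, stood at 381, 437, 357 and 392 CPM in AMs and 73.7, 30.3, 98.9 and 20.4 CPM in CD11c- IMs. *Fcgr1*, which encodes CD64, was at 66.8, 72.2, 77.3 and 74.9 CPM in AMs and 97.6, 57.0, 90.3 and 74.7 CPM in CD11c- IMs. The genes for CD11c, Siglec-F and MerTK were thus lower in every CD11c- IM library than in any AM library, while the values of *Fcgr1* overlapped (log2 fold change 0.13, SE 0.17, adjusted p = 0.541) and were higher in CD11c- IMs with library totals (log2 fold change 0.47) and without both CD11c- IM libraries numbered 2 (log2 fold change 0.37).

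The targeted gene went against its label. *Il9r* stood at 0.635, 0.327, 6.66 and 6.81 CPM in AMs and 0.727, 6.36, 2.55 and 6.03 CPM in CD11c- IMs, so both AM libraries labelled *Il9r-/-* were above both WT AM libraries. The counts are summed over the gene and do not show which exons the reads came from, so they do not tell whether the transcript is intact. The groups are therefore called libraries labelled *Il9r-/-*, and no direction is drawn from the genotype alone. *Xist*, the RNA of the inactive X chromosome, was at 27.4 and 12.1 CPM in the AM and CD11c- IM libraries numbered 1 of WT. Its highest value was 0.0469 CPM in the other 6. The Y-linked *Ddx3y* was at 0.166 and 0.249 CPM in those 2 libraries and at 57.9 to 72.7 CPM in the others. The WT libraries thus differ in sex by number in both populations. The 2 WT libraries of a population therefore came from different mice. For the libraries labelled *Il9r-/-* no source states this, so the p-values rest on library-to-library variation that may be technical in that genotype.

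With genotype as a covariate, 4047 genes were higher (27.6% of those tested) and 2895 were lower (19.8%) in CD11c- IMs against AMs, by edgeR's quasi-likelihood test at a Benjamini-Hochberg adjusted p under 0.05, the threshold for every call below. The 4 and 4 libraries did not overlap for 3895 genes that were higher (26.6%) and 3155 that were lower (21.5%). A count over a list has to be read against these shares. The split depends on the scaling: with library totals in place of the trimmed mean, 5641 genes were higher and 1553 lower, and the median log2 fold change of all genes moved from 0.08 to 0.42. The values below are those with the trimmed mean, without subtracting its median.

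Within WT, 2182 genes were higher (14.9%) and 1619 lower (11.1%), and within the libraries labelled *Il9r-/-*, 2698 were higher (18.4%) and 1581 lower (10.8%). In both genotypes with the same sign, 1921 were higher (13.1%) and 1283 lower (8.76%), which is 84.3% of the WT calls and 74.9% of the calls in the libraries labelled *Il9r-/-*. No gene passed in both with opposite signs. Across the 14648 genes the log2 fold changes of the genotypes had a Pearson correlation of 0.87. This is a description across genes, which are not independent, though the genotypes share no library. The difference between the genotypes passed the test for 0 genes (0%) by edgeR and for 10 genes by DESeq2. With edgeR 351 genes had an unadjusted p under 0.05, fewer than the share of 0.05 that chance alone would give. The counts within a genotype rest on pairs of libraries: without WT AM 2, the calls in WT fell to 697 higher and 593 lower and those in both genotypes to 690 and 565. Without the first AM library labelled *Il9r-/-* the calls in that genotype fell to 972 and 584. Without WT AM 1 the calls in WT were 832 and 666. Without the second AM library labelled *Il9r-/-* those in that genotype were 1114 and 621. Of the called genes given below with a pooled log2 fold change or adjusted p, *Cd14*, *Cfb*, *Scd1*, *Fcer1g*, *Il1b*, *Lgmn*, *Ftl1*, *Pcna*, *Dusp1* and *Cdh5* did not pass within WT and *Cfb*, *Fcer1g*, *Lgmn*, *Ftl1* and *Vwf* did not pass within the libraries labelled *Il9r-/-*, while the others passed in both.

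**Figure D1:**
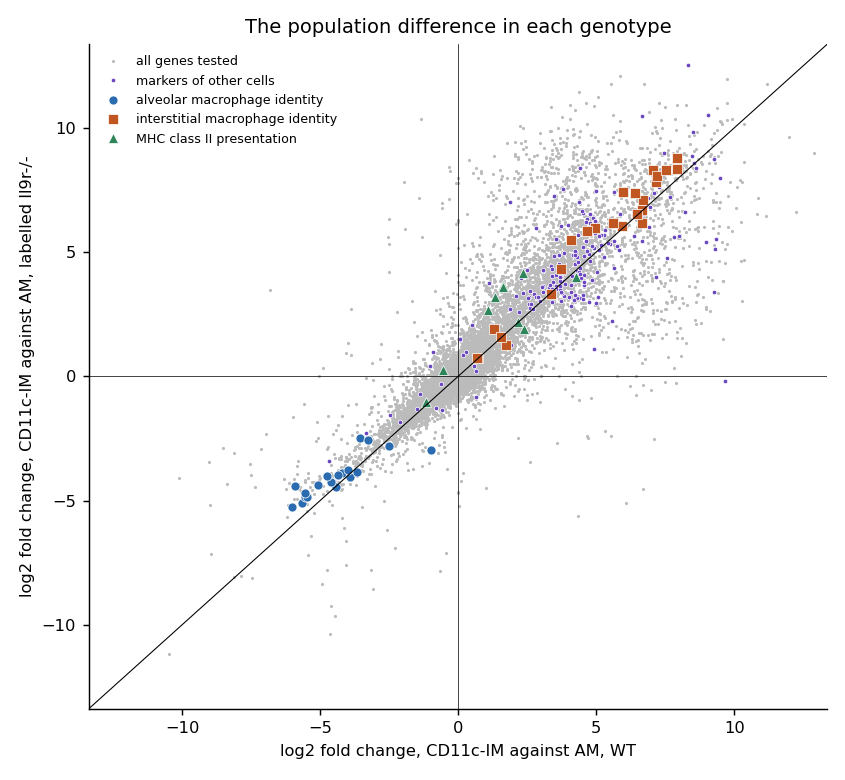
Each point is a gene, with the log2 fold change of CD11c-IM against AM in WT on the x axis and in the libraries labelled Il9r-/- on the y axis. The line marks equal values. Alveolar genes lie at the lower left and interstitial genes at the upper right in both genotypes, while most MHC class II genes lie above the line, and the correlation over all 14648 genes is 0.87.

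Genes that mark IMs were higher almost without exception. Of the 24 listed, 23 were higher and 0 lower, 21 of them in both genotypes, with a median log2 fold change of 6.20 against 0.08 over all genes. The list was drawn up with earlier results of these libraries known, so its direction is not independent evidence. *C1qa*, *C1qb* and *C1qc*, which encode the chains of complement C1q, moved together. *C1qb* stood at 15.9, 16.4, 7.32 and 11.6 CPM in AMs and 3745, 865, 3159 and 1112 CPM in CD11c- IMs (log2 fold change 7.49, SE 0.64, adjusted p = 6.48e-05). *C1qa* was at 2.32 to 8.97 CPM in AMs and 392 to 1646 CPM in CD11c- IMs (log2 fold change 7.67, SE 0.70, adjusted p = 9.08e-05). *C1qc* was at 4.53 to 13.01 CPM in AMs and 589.9 to 2710.4 CPM in CD11c- IMs (log2 fold change 7.63, SE 0.69, adjusted p = 8.34e-05). In each of these genes the CD11c- IM libraries numbered 1 were higher than those numbered 2 in both genotypes, and all 4 were above every AM library.

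The start regions of *C1qb* and *C1qc*, the neighbouring genes on chromosome 4 that moved together, are shown beside those of *Fabp1* and *Chil3*, which were lower in CD11c- IMs. The windows are RefSeq sequences of GRCm38.p6 that run from 250 bases before to 50 bases after the start of the gene, 5′ to 3′ on its strand, and the table used here has no window for *C1qa*. Capitals mark TGCTGA, a short recognition motif of the MAF family to which *Maf* belongs, and AGGTCA, a short recognition motif of nuclear receptors such as PPAR-gamma, each on either strand (TCAGCA and TGACCT). *C1qb* lies at chr4:136886151-136886450, minus strand, *C1qc* at chr4:136892865-136893164, minus strand, *Fabp1* at chr6:71199629-71199928, plus strand and *Chil3* at chr3:106167515-106167814, minus strand.

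C1qb: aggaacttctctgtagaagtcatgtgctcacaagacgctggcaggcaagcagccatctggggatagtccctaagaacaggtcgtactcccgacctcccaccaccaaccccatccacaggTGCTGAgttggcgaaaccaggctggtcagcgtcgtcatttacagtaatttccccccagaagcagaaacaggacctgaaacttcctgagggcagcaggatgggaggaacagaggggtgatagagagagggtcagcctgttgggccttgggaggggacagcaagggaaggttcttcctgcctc
C1qc: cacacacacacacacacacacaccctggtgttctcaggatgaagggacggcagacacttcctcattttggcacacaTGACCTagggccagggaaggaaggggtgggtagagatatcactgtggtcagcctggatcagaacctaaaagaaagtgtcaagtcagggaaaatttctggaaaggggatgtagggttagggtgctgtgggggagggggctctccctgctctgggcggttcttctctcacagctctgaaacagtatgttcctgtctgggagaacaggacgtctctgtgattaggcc
Fabp1: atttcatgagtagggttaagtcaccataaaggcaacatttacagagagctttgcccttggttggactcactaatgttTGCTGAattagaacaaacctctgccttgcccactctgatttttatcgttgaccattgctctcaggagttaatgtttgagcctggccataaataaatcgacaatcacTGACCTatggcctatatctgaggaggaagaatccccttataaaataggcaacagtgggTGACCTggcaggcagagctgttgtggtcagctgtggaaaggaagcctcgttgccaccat
Chil3: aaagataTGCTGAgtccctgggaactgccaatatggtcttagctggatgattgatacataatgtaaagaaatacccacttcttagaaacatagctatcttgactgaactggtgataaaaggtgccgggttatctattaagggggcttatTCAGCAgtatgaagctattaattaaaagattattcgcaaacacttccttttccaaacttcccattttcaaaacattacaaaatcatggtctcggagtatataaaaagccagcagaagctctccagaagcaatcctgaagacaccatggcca

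The window of *C1qb* held 1 MAF motif and 0 nuclear receptor motifs, and that of *C1qc* 0 and 1. The *Fabp1* window held 1 and 2, and the *Chil3* window 2 and 0. TGCTGA occurred in 19.5% and AGGTCA in 16.3% of all 32851 windows, so either is common by its length alone, and each was found on both sides of the comparison. A match describes these letters only and says nothing of binding.

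Several further IM genes rose by more than the spread of the libraries. *Apoe*, which encodes an apolipoprotein that carries cholesterol out of macrophages, stood at 264, 218, 117 and 149 CPM in AMs and 10873, 4095, 11492 and 5073 CPM in CD11c- IMs (log2 fold change 5.46, SE 0.47, adjusted p = 6.8e-05). *F13a1*, the A subunit of coagulation factor XIII, rose from a range of 8.61 to 20.8 CPM in AMs to 1219.6 to 2659 CPM in CD11c- IMs (log2 fold change 6.89, SE 0.47, adjusted p = 2.39e-05). *Folr2*, a folate receptor, was at 1.82, 1.64, 0.448 and 1.18 CPM in AMs and 719, 123, 531 and 189.7 CPM in CD11c- IMs (log2 fold change 8.34, SE 0.78, adjusted p = 9.85e-05). *Lyve1*, a hyaluronan receptor, was at 0.607 to 1.64 CPM in AMs and 91.0 to 489.9 CPM in CD11c- IMs (log2 fold change 8.14, SE 0.76, adjusted p = 0.000102). *Cd163*, the receptor of haptoglobin-bound hemoglobin, was at 0.211 to 1.67 CPM in AMs and 109 to 469 CPM in CD11c- IMs (log2 fold change 7.92, SE 0.85, adjusted p = 0.000195). These are genes of the *Lyve1* type of IM, and none of their CD11c- IM values overlapped the AM values. In CD11c+ IMs the same genes stood at 16.5 to 91.5 CPM for *Folr2*, 15.1 to 54.4 CPM for *Lyve1* and 9.86 to 67.1 CPM for *Cd163*, below the CD11c- IM libraries in each case. The chemokine receptor *Cx3cr1*, which marks the other type, stood at 11.2, 8.83, 3.32 and 6.62 CPM in AMs and 106, 231, 215 and 231 CPM in CD11c- IMs (log2 fold change 4.77, SE 0.44, adjusted p = 8.91e-05). The CD11c+ IM libraries reached 194, 343, 142 and 324 CPM. The one member that did not pass was *Trem2*, a lipid receptor (log2 fold change 0.70, adjusted p = 0.154).

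**Figure D2:**
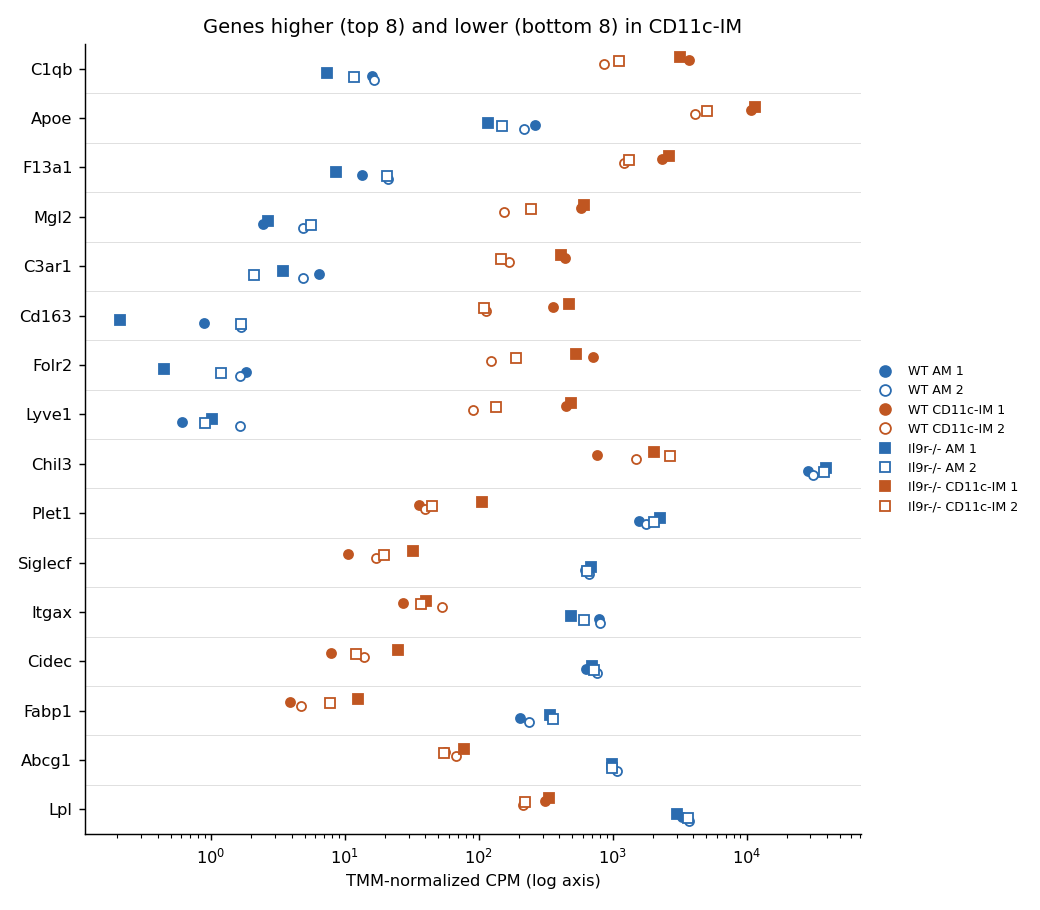
TMM-normalized CPM on a log axis in each of the 8 libraries for 8 genes that were higher and 8 that were lower in CD11c-IM. Circles are WT and squares are labelled Il9r-/-, filled symbols are libraries numbered 1 and open symbols those numbered 2. No AM point overlaps a CD11c-IM point of the same gene, and for C1qb, Apoe, Mgl2, Folr2 and Lyve1 the filled CD11c-IM symbols lie above the open ones.

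AM genes were lower almost without exception. Of 20 listed, 19 were lower and 0 higher, all 19 also within each genotype, with a median log2 fold change of -4.40. *Chil3*, a chitinase-like lectin, stood at 28951, 31480.1, 38892 and 37577 CPM in AMs and 764, 1506, 2050.2 and 2679.9 CPM in CD11c- IMs (log2 fold change -4.37, SE 0.30, adjusted p = 2.59e-05). *Plet1*, a surface protein of AMs, fell from a range of 1582 to 2272 CPM in AMs to 35.6 to 106 CPM in CD11c- IMs (log2 fold change -5.16, SE 0.32, adjusted p = 1.63e-05). *Atp6v0d2*, a subunit of the vacuolar proton pump, was at 1591 to 2016 CPM in AMs and 41.9 to 127 CPM in CD11c- IMs (log2 fold change -4.44, SE 0.36, adjusted p = 5.15e-05). The exception was *Marco*, a scavenger receptor, at 417, 205, 489 and 650.2 CPM in AMs and 293, 26.1, 105 and 41.0 CPM in CD11c- IMs (log2 fold change -1.96, SE 0.78, adjusted p = 0.0703). WT CD11c- IM 1 alone was in the range of AMs.

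AM transcripts did not reach 0 in the CD11c- IM libraries. As a share of the AM mean of the same gene, the median over the 20 genes was 3.02% and 3.83% in the WT libraries and 6.53% and 3.17% in the libraries labelled *Il9r-/-*. In bulk libraries a few AMs among the sorted cells and low transcription in all of them cannot be told apart, and in the same way fewer cells of a type and less RNA per cell cannot be told apart for any gene below. In CD11c+ IMs the summed level of these genes was 4624 to 19619.7 CPM, against 1527 to 3217 CPM in CD11c- IMs and 40933 to 52894 CPM in AMs.

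Pan-macrophage genes did not move as 1 group: of 12, 2 were higher and 7 were lower. *Lyz2*, lysozyme 2, stood at 54126, 52229, 48745 and 50629.8 CPM in AMs and 17308, 15789, 17026 and 24328 CPM in CD11c- IMs (log2 fold change -1.47, SE 0.19, adjusted p = 0.000491). *Laptm5*, a lysosomal membrane protein, was at 3741 to 4026 CPM in AMs and 1315 to 1923 CPM in CD11c- IMs (log2 fold change -1.33, SE 0.16, adjusted p = 0.000334). *Csf1r*, the receptor of CSF-1, went the other way, at 732, 644, 497 and 615 CPM in AMs and 1929, 1488, 2156 and 1997 CPM in CD11c- IMs (log2 fold change 1.61, SE 0.18, adjusted p = 0.000244). *Aif1*, a calcium-binding protein known as IBA1, rose from a range of 0.527 to 1.89 CPM in AMs to 50.8 to 123 CPM in CD11c- IMs (log2 fold change 5.97, SE 0.47, adjusted p = 4.6e-05). *Adgre1*, which encodes F4/80, did not pass (log2 fold change 0.13, adjusted p = 0.710).

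The genes that specify the lineages split by population. Of 25 genes for the GM-CSF receptor, the TGF-beta receptor and lineage transcription factors, 6 were higher and 14 were lower, and 5 higher and 12 lower in both genotypes. *Pparg*, the nuclear receptor that GM-CSF induces in AMs, stood at 328, 416, 472 and 402 CPM in AMs and 30.4, 42.0, 38.6 and 43.0 CPM in CD11c- IMs (log2 fold change -3.39, SE 0.16, adjusted p = 6.48e-06). *Csf2ra*, the GM-CSF-binding chain, was at 653, 702, 839 and 740.0 CPM in AMs and 258, 246, 266 and 399 CPM in CD11c- IMs (log2 fold change -1.34, SE 0.16, adjusted p = 0.000275). *Csf2rb*, the signalling chain, and its mouse relative *Csf2rb2* had log2 fold changes of -2.08 and -2.34 (adjusted p = 0.000185 and 4e-05). *Bhlhe40*, a repressor known for its part in AM self-renewal, was at 739.5 to 1016 CPM in AMs and 209.7 to 276 CPM in CD11c- IMs (log2 fold change -1.77, SE 0.15, adjusted p = 5.89e-05).

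On the other side, *Maf*, a transcription factor that represses self-renewal in macrophages, had a log2 fold change of 6.41 (adjusted p = 7.67e-05), at 0.218 to 0.320 CPM in AMs and 9.83 to 35.1 CPM in CD11c- IMs. *Klf2*, a factor of quiescent leukocytes, stood at 47.0, 65.5, 56.1 and 59.2 CPM in AMs and 299, 371, 341 and 419.7 CPM in CD11c- IMs (log2 fold change 2.65, SE 0.16, adjusted p = 1.36e-05). *Id3* was at 17.5 to 42.0 CPM in AMs and 62.3 to 75.3 CPM in CD11c- IMs (log2 fold change 1.46, SE 0.22, adjusted p = 0.000995). *Runx3*, which T and NK cells also express, rose by 4.09 log2 units (adjusted p = 0.00178). The T and NK list was higher in the same libraries, and its part in this was not tested. *Irf8*, *Zeb2*, *Id2* and *Klf4* had log2 fold changes between -0.16 and 0.08 and did not pass.

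Complement genes beyond C1q were among those that differed. Of 16 complement components and receptors, the 3 C1q chains included, 11 were higher and 2 were lower, 10 of the first in both genotypes. *C3ar1*, the receptor of the fragment C3a, rose from a range of 2.11 to 6.38 CPM in AMs to 148 to 437 CPM in CD11c- IMs (log2 fold change 6.18, SE 0.52, adjusted p = 6.08e-05). *Vsig4*, a receptor of C3b that tissue macrophages carry, was at 0.145 to 0.416 CPM in AMs and 12.9 to 70.0 CPM in CD11c- IMs (log2 fold change 6.80, SE 0.68, adjusted p = 0.000139). *Itgam*, which encodes the alpha chain of complement receptor 3, stood at 26.3, 27.3, 7.01 and 24.2 CPM in AMs and 480.1, 496, 477 and 639.5 CPM in CD11c- IMs (log2 fold change 4.67, SE 0.43, adjusted p = 8.88e-05). Its partner *Itgb2*, the beta chain shared with CD11c, was lower, at 2940.3, 2802, 2707 and 2817 CPM in AMs and 861, 1081, 776 and 1399 CPM in CD11c- IMs (log2 fold change -1.45, SE 0.20, adjusted p = 0.000711). The other lower gene, *Cfb*, lost its call without any 1 of 3 libraries (adjusted p up to 0.0878). *C3* and the C5a receptor *C5ar1* did not pass (log2 fold changes 0.45 and -0.05). *C4b* and *Serping1*, which fibroblasts also express, had log2 fold changes of 5.89 and 6.72. The fibroblast list was higher in the same libraries, and its part in them was not tested.

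Fatty acid genes were mostly lower in CD11c- IMs. Of 30 genes of fatty acid uptake, storage and oxidation, 2 were higher and 25 were lower, with a median log2 fold change of -1.67 and 21 lower in both genotypes. *Lpl*, lipoprotein lipase, stood at 3303, 3732, 3032 and 3684 CPM in AMs and 313, 213, 336 and 223 CPM in CD11c- IMs (log2 fold change -3.67, SE 0.21, adjusted p = 1.31e-05). *Plin2*, a coat protein of lipid droplets, was at 2678, 3097, 3039 and 3174 CPM in AMs and 761, 444, 685 and 473 CPM in CD11c- IMs (log2 fold change -2.34, SE 0.22, adjusted p = 9.09e-05). *Lipa*, the lysosomal acid lipase, was at 1168 to 1340.4 CPM in AMs and 217 to 345 CPM in CD11c- IMs (log2 fold change -2.13, SE 0.18, adjusted p = 6.67e-05). *Fabp1*, a fatty acid-binding protein, stood at 203, 235, 343 and 356 CPM in AMs and 3.93, 4.74, 12.5 and 7.71 CPM in CD11c- IMs (log2 fold change -5.38, SE 0.22, adjusted p = 5.13e-06). *Cidec*, which enlarges lipid droplets, was at 631 to 769 CPM in AMs and 7.94 to 24.8 CPM in CD11c- IMs (log2 fold change -5.64, SE 0.34, adjusted p = 1.47e-05), and the peroxisomal thiolase *Acaa1b* at 274 to 364 CPM in AMs and 4.65 to 17.2 CPM in CD11c- IMs (log2 fold change -5.24, SE 0.35, adjusted p = 2.27e-05). The genes that were higher were the desaturases *Scd1* and *Scd2*, and *Scd1* lost its call without either AM library labelled *Il9r-/-* or without WT CD11c- IM 2 (adjusted p up to 0.0765). *Scd2* stood at 93.2, 73.1, 48.5 and 47.7 CPM in AMs and 219, 162, 172 and 95.6 CPM in CD11c- IMs (log2 fold change 1.34, SE 0.21, adjusted p = 0.00121).

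Cholesterol genes were divided. Of 9, 1 was higher and 5 were lower. *Abcg1*, which exports cholesterol to HDL, stood at 985, 1073, 989 and 988 CPM in AMs and 56.4, 67.7, 77.8 and 54.9 CPM in CD11c- IMs (log2 fold change -3.97, SE 0.17, adjusted p = 4.98e-06). *Nceh1* and *Soat1*, which hydrolyse and form cholesterol esters, were at 664 to 773 and 359 to 404 CPM in AMs and 54.0 to 118 and 127 to 154 CPM in CD11c- IMs (log2 fold changes -2.99 and -1.42, adjusted p = 6.28e-05 and 4.6e-05). *Abca1*, the other sterol exporter, did not pass (log2 fold change -0.04, adjusted p = 0.930), and the gene that was higher was *Apoe*.

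Receptors for dying cells were divided between the populations. Of 19 scavenger and apoptotic cell receptors and their bridging proteins, 7 were higher and 7 were lower. *Axl*, a receptor of the TAM family, stood at 2498, 2374, 2054 and 2360.5 CPM in AMs and 241, 162, 298 and 175 CPM in CD11c- IMs (log2 fold change -3.41, SE 0.23, adjusted p = 2.59e-05). *Mertk* was lower as well (log2 fold change -2.81, SE 0.48, adjusted p = 0.00200). *Gas6*, the ligand of both, stood at 2.51, 3.38, 1.26 and 0.896 CPM in AMs and 522, 134, 538 and 160.1 CPM in CD11c- IMs (log2 fold change 7.52, SE 0.71, adjusted p = 0.000106). The other bridging protein, *Pros1*, went the opposite way (log2 fold change -1.76, adjusted p = 0.00209). *Timd4*, a phosphatidylserine receptor, had a log2 fold change of 7.85 (adjusted p = 0.000295), at 0.0527 to 0.994 CPM in AMs and 24.7 to 215 CPM in CD11c- IMs, and the endocytic receptor *Lrp1* one of -1.59 (adjusted p = 0.000134). *Msr1*, scavenger receptor A, rose from a range of 36.0 to 64.6 CPM in AMs to 129 to 303 CPM in CD11c- IMs (log2 fold change 2.35, SE 0.32, adjusted p = 0.000664).

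C-type lectins were divided too. Of 16, 8 were higher and 6 were lower. The related genes *Cd209d*, *Cd209f* and *Cd209g*, mouse relatives of the pathogen receptor DC-SIGN, stood at 0 to 0.221, 0.369 to 1.60 and 0.158 to 0.836 CPM in AMs and at 14.0 to 94.1, 115 to 783 and 47.1 to 279 CPM in CD11c- IMs (log2 fold changes 8.31, 8.44 and 8.34, adjusted p = 0.000268, 0.000151 and 0.000128). These are similar copies in 1 family, so reads may be split among them. *Mgl2*, a galactose-type lectin, stood at 2.43, 4.87, 2.69 and 5.63 CPM in AMs and 581, 153, 614 and 246 CPM in CD11c- IMs (log2 fold change 6.68, SE 0.61, adjusted p = 8.79e-05). *Clec7a*, known as Dectin-1, was lower, at 1822, 1512, 1613 and 1769 CPM in AMs and 289, 453, 320.1 and 623 CPM in CD11c- IMs (log2 fold change -2.005, SE 0.25, adjusted p = 0.00041). *Clec4n*, known as Dectin-2, was lower too (log2 fold change -2.93, SE 0.20, adjusted p = 2.28e-05). *Mrc1*, the mannose receptor, did not pass (log2 fold change -1.001, adjusted p = 0.0960).

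Of 11 iron and heme genes, 5 were higher and 4 were lower. *Slc40a1*, the iron exporter ferroportin, stood at 14.2, 15.4, 14.6 and 16.8 CPM in AMs and 136, 108, 145 and 224 CPM in CD11c- IMs (log2 fold change 3.30, SE 0.20, adjusted p = 1.45e-05). *Slc11a1*, the phagosomal metal transporter NRAMP1, was at 35.0, 32.3, 15.1 and 22.97 CPM in AMs and 419.9, 326, 373 and 465 CPM in CD11c- IMs (log2 fold change 3.96, SE 0.27, adjusted p = 2.43e-05). *Slc48a1*, a heme transporter, was lower (log2 fold change -1.18, SE 0.18, adjusted p = 0.00117). *Fth1*, ferritin heavy chain, was at 12373, 11348, 13254 and 11858 CPM in AMs and 4814, 3246, 4284 and 3724 CPM in CD11c- IMs (log2 fold change -1.60, SE 0.18, adjusted p = 0.000208). *Ftl1*, ferritin light chain, was at 14691 to 16082 CPM in AMs and 5039.7 to 10234 CPM in CD11c- IMs (log2 fold change -1.06, SE 0.25, adjusted p = 0.00793). *Hmox1*, which breaks down heme, did not pass (log2 fold change 0.22, adjusted p = 0.630).

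Chemokine ligands were mostly higher in CD11c- IMs. Of 22, 15 were higher and 3 were lower, and 13 higher and 2 lower in both genotypes. *Ccl7*, which draws monocytes through *Ccr2*, stood at 17.9, 22.4, 28.1 and 29.1 CPM in AMs and 747, 202, 621 and 232 CPM in CD11c- IMs (log2 fold change 4.23, SE 0.49, adjusted p = 0.000295). *Ccl8* was at 0.192 to 0.828 CPM in AMs and 37.7 to 259.7 CPM in CD11c- IMs (log2 fold change 8.23, SE 0.89, adjusted p = 0.000209). *Ccl9* was at 49.5 to 84.2 CPM in AMs and 226 to 493 CPM in CD11c- IMs (log2 fold change 2.5, SE 0.28, adjusted p = 0.000264). *Cxcl13*, which draws B cells, had a log2 fold change of 7.61 (adjusted p = 0.000253), at 0.0727 to 1.21 CPM in AMs and 41.0 to 220.1 CPM in CD11c- IMs. *Ccl6*, a chemokine of myeloid cells, was lower, at 4504, 4367, 7901 and 5596 CPM in AMs and 2232, 1066, 2066 and 1426 CPM in CD11c- IMs (log2 fold change -1.69, SE 0.28, adjusted p = 0.00164). *Ccl3* was lower too, at 143 to 281 CPM in AMs and 96.0 to 118 CPM in CD11c- IMs (log2 fold change -1.02, SE 0.17, adjusted p = 0.00178). The summed level of the list was 2907 to 6248 CPM in CD11c- IMs against 5188 to 8778 CPM in AMs with an overlap, while the median log2 fold change of the list was 2.38. Without the first CD11c- IM library labelled *Il9r-/-* 5 were lower.

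Among 8 chemokine receptors, 5 were higher and 0 were lower. *Ccr2*, by which monocytes leave the marrow, stood at 20.4, 18.6, 11.6 and 17.7 CPM in AMs and 163, 348, 170.2 and 418 CPM in CD11c- IMs (log2 fold change 4.02, SE 0.39, adjusted p = 0.000115). Here the libraries numbered 2 were the higher ones. The same held for the monocyte gene *Hp*, haptoglobin, at 20.5, 17.9, 11.7 and 33.0 CPM in AMs and 95.7, 444, 364 and 949 CPM in CD11c- IMs (log2 fold change 4.35, SE 0.63, adjusted p = 0.000894). Of 14 monocyte genes, 11 were higher and 1 was lower, the lower one being *F10*, coagulation factor X (log2 fold change -1.98, SE 0.17, adjusted p = 5.78e-05). Neutrophils express *Hp* too, and the neutrophil list was higher in the libraries numbered 2 as well. The part of neutrophils in this was not tested.

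Cytokines and growth factors had no common direction: of 19, 9 were higher and 8 were lower. *Vegfa*, the vascular growth factor, stood at 9.22, 8.25, 3.95 and 10.4 CPM in AMs and 114, 119, 73.9 and 88.7 CPM in CD11c- IMs (log2 fold change 3.62, SE 0.29, adjusted p = 4.82e-05). *Il10* was at 0.291 to 0.801 CPM in AMs and 7.60 to 44.3 CPM in CD11c- IMs (log2 fold change 5.61, SE 0.67, adjusted p = 0.000334). *Il6*, the interleukin 6 gene, was at 2.65, 3.31, 6.59 and 7.36 CPM in AMs and 29.0, 18.2, 23.6 and 38.7 CPM in CD11c- IMs (log2 fold change 2.56, SE 0.28, adjusted p = 0.000224). *Il1b* was at 279, 262, 343 and 520.1 CPM in AMs and 539, 2069.8, 1358 and 4394 CPM in CD11c- IMs (log2 fold change 2.504, SE 0.50, adjusted p = 0.00392). It did not pass within WT (adjusted p = 0.0592). Its 4 CD11c- IM values had the same order as the summed neutrophil genes, 615, 5202, 3792 and 9666 CPM. The part of neutrophils in it was not tested. *Osm*, oncostatin M, was lower (log2 fold change -0.97, SE 0.18, adjusted p = 0.00246), as were *Il18* (log2 fold change -3.76, adjusted p = 4.17e-06), *Tnf* (log2 fold change -1.29, adjusted p = 0.00075) and *Il1a* (log2 fold change -1.85, adjusted p = 0.000141).

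Class II antigen presentation genes were mostly higher in CD11c- IMs. For the main ones the fold was larger in the libraries labelled *Il9r-/-*, a difference that passed by DESeq2 but not by edgeR. Of 10 genes, 8 were higher and 1 was lower, with 5 higher and 1 lower in both genotypes. Within WT, 5 were higher and 2 were lower. The summed level of the list was 16256.5 to 17276.3 CPM in CD11c- IMs and 2227 to 7253 CPM in AMs. CD11c+ IMs were above both, at 27805 to 40245 CPM. *Cd74*, the invariant chain, stood at 3345, 4091, 1012 and 1032 CPM in AMs and 9294, 9569.7, 8805 and 9709.6 CPM in CD11c- IMs (log2 fold change 2.26, SE 0.38, adjusted p = 0.00173). *H2-Ab1* was at 963, 1187, 245 and 313 CPM in AMs and 3387, 3283, 3338 and 3451 CPM in CD11c- IMs (log2 fold change 2.62, SE 0.41, adjusted p = 0.00124). *H2-Aa* was at 507, 642, 131 and 150.5 CPM in AMs and 1858, 1690.0, 1836 and 1804 CPM in CD11c- IMs (log2 fold change 2.66, SE 0.42, adjusted p = 0.00137). The CD11c- IM values were alike in the 4 libraries, while the AM libraries labelled *Il9r-/-* lay below those of WT. Within WT the log2 fold changes of *Cd74*, *H2-Ab1* and *H2-Aa* were 1.34, 1.63 and 1.63, and within the libraries labelled *Il9r-/-* they were 3.18, 3.605 and 3.69. By edgeR the difference between these had an adjusted p of 1.000 for each of them and an unadjusted p of 0.000453, 0.000338 and 0.000167. DESeq2 gave adjusted p = 1.34e-08, 4.79e-07 and 1.25e-08, so that this difference passes by 1 tool only. *H2-DMa*, a peptide exchange factor in lysosomes, was lower in CD11c- IMs, at 508 to 559 CPM in AMs and 220.4 to 287 CPM (log2 fold change -1.10, SE 0.13, adjusted p = 0.000305). B cells and dendritic cells express class II genes too. In the CD11c- IM libraries the summed B cell genes were 406, 2484, 325 and 1650.2 CPM. The summed dendritic cell genes were 263, 1037, 322 and 588 CPM, and both sums were higher in the libraries numbered 2. The chemokine receptor gene *Ccr7* alone made up 56.3% of the dendritic cell sum in CD11c- IMs, so that sum mostly follows this gene. *Cd74* differed little by number, while the summed IM genes were lower in the libraries numbered 2. The part of B and dendritic cells in the class II genes was not tested.

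**Figure D3:**
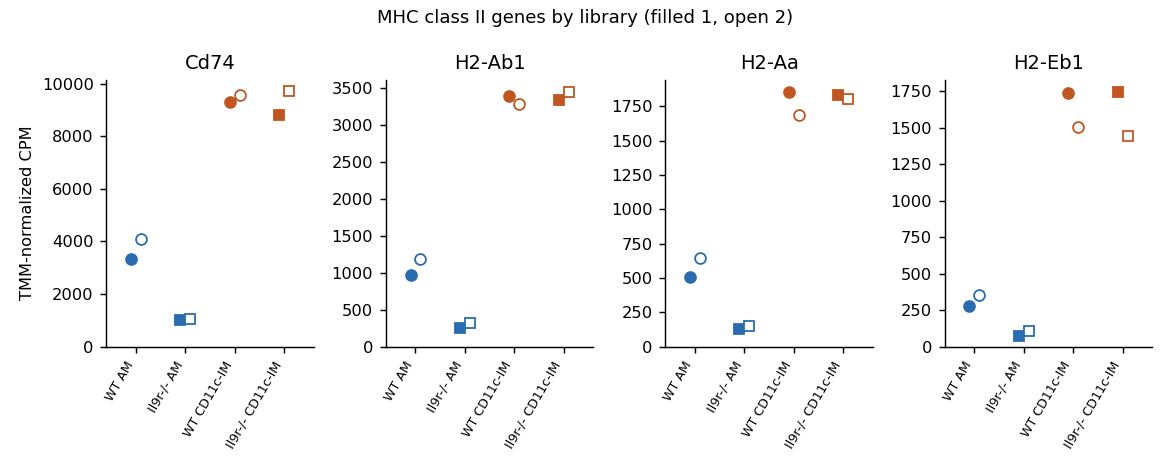
TMM-normalized CPM of 4 MHC class II genes in each library, with 1 panel per gene, AM libraries in blue, CD11c-IM libraries in orange, filled symbols numbered 1 and open symbols numbered 2. The CD11c-IM values are close to each other in both genotypes (Cd74 8805 to 9709.6 CPM), and the AM libraries labelled Il9r-/- lie below the WT ones.

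Costimulatory and inhibitory genes went both ways, with 5 higher and 5 lower of 13. *Cd86*, a ligand of CD28, stood at 24.1, 28.9, 14.0 and 17.2 CPM in AMs and 131, 77.6, 129 and 87.6 CPM in CD11c- IMs (log2 fold change 2.39, SE 0.26, adjusted p = 0.000209). *Cd274*, which encodes PD-L1, was lower, at 259, 268, 188 and 202 CPM in AMs and 45.3, 77.9, 48.0 and 62.3 CPM in CD11c- IMs (log2 fold change -1.96, SE 0.19, adjusted p = 0.000116). *Havcr2*, which encodes TIM-3 (log2 fold change -2.13, SE 0.16, adjusted p = 3.48e-05), and *Sirpa*, the receptor of CD47, were lower too (log2 fold change -1.95, SE 0.14, adjusted p = 3.15e-05).

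*Arg1*, the arginase that the study follows, stood at 11.7, 10.1, 1.34 and 1.82 CPM in AMs and 488, 140.1, 186 and 88.4 CPM in CD11c- IMs (log2 fold change 5.59, SE 0.57, adjusted p = 0.000152). All CD11c- IM libraries were above all AM libraries in both genotypes, with log2 fold changes of 4.85 in WT (adjusted p = 0.00323) and 6.44 in the libraries labelled *Il9r-/-* (adjusted p = 0.00153). CD11c+ IMs stood at 837, 498, 273 and 191 CPM. Within CD11c- IMs the values of the genotypes overlapped, since WT 2 was below the first library labelled *Il9r-/-*. Within each number the WT library was the higher one, at 488 against 186 CPM and 140.1 against 88.4 CPM. This genotype difference was not tested. Of 9 genes of arginine and polyamine metabolism, 6 were higher and 1 was lower. *Odc1*, the first enzyme of polyamine synthesis, was at 74.6, 81.5, 78.3 and 72.8 CPM in AMs and 143, 147, 117 and 131 CPM in CD11c- IMs (log2 fold change 0.81, SE 0.10, adjusted p = 0.00044). *Arg2*, the mitochondrial arginase that neutrophils also express, was at 4.47 to 6.37 CPM in AMs and 9.81, 56.0, 33.7 and 106 CPM in CD11c- IMs (log2 fold change 3.24, SE 0.59, adjusted p = 0.00270). Its order followed the neutrophil genes, whose part was not tested. The arginine transporter *Slc7a2* was lower, at 292 to 385 CPM in AMs and 8.98 to 31.8 CPM in CD11c- IMs (log2 fold change -4.14, SE 0.39, adjusted p = 0.000107).

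Proteases and their inhibitors went both ways. *Ctsd*, cathepsin D, stood at 19122, 18004, 17529 and 17897 CPM in AMs and 6469, 2715, 4838 and 2219.6 CPM in CD11c- IMs (log2 fold change -2.17, SE 0.34, adjusted p = 0.00124). *Ctss*, cathepsin S, was at 5012 to 5620.4 CPM in AMs and 1662 to 2476 CPM in CD11c- IMs (log2 fold change -1.40, SE 0.17, adjusted p = 0.000295). *Cst3*, cystatin C, was at 601, 584, 644 and 602 CPM in AMs and 1337, 1013, 1387 and 1354 CPM in CD11c- IMs (log2 fold change 1.06, SE 0.13, adjusted p = 0.000423). *Timp2*, an inhibitor of matrix metalloproteinases, was at 123 to 226 CPM in AMs and 406 to 996 CPM in CD11c- IMs (log2 fold change 2.10, SE 0.35, adjusted p = 0.00177). The list of 16 had 8 higher and 5 lower. *Lgmn*, the lysosomal protease legumain, was higher (log2 fold change 1.16, SE 0.35, adjusted p = 0.0258), a call lost without any 1 of 6 libraries (adjusted p up to 0.0819). The count of higher genes rested on single libraries, with 4 without WT AM 2 or without the second AM library labelled *Il9r-/-*, and 5 without WT CD11c- IM 1 or without the first AM library labelled *Il9r-/-*.

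Adhesion receptors were divided, with 8 higher and 5 lower of 17. *Itga9*, an integrin chain that binds tenascin, rose from a range of 0.0364 to 0.387 CPM in AMs to 23.8 to 77.9 CPM in CD11c- IMs (log2 fold change 8.06, SE 0.71, adjusted p = 7.26e-05). *Itgb7*, which pairs with alpha4 on lymphocytes, stood at 13.7, 23.2, 6.85 and 19.5 CPM in AMs and 96.5, 401, 85.4 and 496 CPM in CD11c- IMs (log2 fold change 4.11, SE 0.72, adjusted p = 0.00219). Its order by number followed the lymphocyte genes, whose part was not tested. *Cd9*, a tetraspanin, was lower, at 5353, 5834, 6889 and 5881 CPM in AMs and 492, 406, 687 and 462 CPM in CD11c- IMs (log2 fold change -3.56, SE 0.19, adjusted p = 1.01e-05). The hyaluronan receptor *Cd44* was lower too (log2 fold change -1.49, SE 0.20, adjusted p = 0.000571).

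Toll-like receptor genes had 4 higher and 5 lower of 13 tested, against 27.6% higher and 19.8% lower over all genes. In both genotypes 1 was higher and 2 were lower. *Tlr2* was lower in CD11c- IMs, at 1927, 2241, 1896 and 2246 CPM in AMs and 409, 528, 486 and 579 CPM (log2 fold change -2.06, SE 0.16, adjusted p = 3.74e-05). *Tlr4* was lower too (log2 fold change -1.42, SE 0.20, adjusted p = 0.000804). *Tlr1*, which forms a dimer with *Tlr2*, rose from a range of 0.608 to 1.71 CPM in AMs to 33.0 to 46.1 CPM in CD11c- IMs (log2 fold change 5.26, SE 0.33, adjusted p = 1.7e-05). *Cd14*, the coreceptor of *Tlr4*, was at 927, 893, 1199 and 1226 CPM in AMs and 1591, 1390.0, 1732 and 2367 CPM in CD11c- IMs (log2 fold change 0.73, SE 0.14, adjusted p = 0.00347). Within WT it had an adjusted p of 0.0515. Without WT CD11c- IM 1 the lower Toll-like receptor genes numbered 3, and with library totals 2. Among 6 Fc receptor genes, 0 were higher and 2 were lower, against 27.6% and 19.8% of all genes. *Fcgr4* stood at 122 to 155 CPM in AMs and 50.0004 to 96.2 CPM in CD11c- IMs (log2 fold change -1.05, SE 0.20, adjusted p = 0.00322). The other was *Fcer1g*, the common signalling chain (log2 fold change -0.42, SE 0.15, adjusted p = 0.0422), whose call was lost without any 1 of 6 libraries, with an adjusted p of up to 0.120, and with a block on the library number (adjusted p = 0.0541). Without WT CD11c- IM 2 or the second CD11c- IM library labelled *Il9r-/-* 1 Fc receptor gene was higher.

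Proliferation genes differed little. Of 22, 0 were higher and 4 were lower, against 27.6% and 19.8% of all genes, with a median log2 fold change of -0.17. *Stmn1*, a microtubule regulator of dividing cells, was at 129, 106, 143 and 140.0 CPM in AMs and 78.9, 49.4, 69.2 and 51.9 CPM in CD11c- IMs (log2 fold change -1.05, SE 0.18, adjusted p = 0.00215). *Pcna*, the clamp of DNA polymerase, was at 136 to 154 CPM in AMs and 90.6 to 109 CPM in CD11c- IMs (log2 fold change -0.55, SE 0.11, adjusted p = 0.00322). The count moved with WT CD11c- IM 1, without which 10 were lower, and 7 were lower with a block on the library number. With library totals 2 were higher and 2 lower, so no direction is given for the list. Immediate early and stress genes had 11 higher and 1 lower of 16. *Egr1*, an immediate early transcription factor, stood at 410.0, 423, 447 and 447 CPM in AMs and 1734, 1227, 2718 and 1554 CPM in CD11c- IMs (log2 fold change 2.04, SE 0.22, adjusted p = 0.0002). *Dusp1*, a phosphatase of MAP kinases, was at 1794 to 2255 CPM in AMs and 2768 to 5122 CPM in CD11c- IMs (log2 fold change 0.88, SE 0.21, adjusted p = 0.00879).

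Among the 16 genes named for the largest differences, a choice that left out the lists of other cells, *Chp2*, *Slc9a2*, *Ucp3*, *Pnpla5*, *Cpne5* and *Vstm2a* have not been described above. On the higher side was *Chp2*, a calcineurin-like calcium-binding protein, at 0, 0, 0 and 0.128 CPM in AMs and 35.1, 14.1, 53.3 and 9.26 CPM in CD11c- IMs, a sum of 4 counts over the 4 AM libraries and 4989 over the CD11c- IM libraries (adjusted p = 0.000185). On the lower side, *Slc9a2*, a sodium-proton exchanger, stood at 48.4, 48.4, 38.7 and 39.8 CPM in AMs and 0.769, 1.38, 0.639 and 1.20 CPM in CD11c- IMs (log2 fold change -5.46, SE 0.27, adjusted p = 7.87e-06). *Ucp3*, a mitochondrial uncoupling protein, was at 99.0 to 121 CPM in AMs and 1.59 to 4.20 CPM in CD11c- IMs (log2 fold change -5.31, SE 0.28, adjusted p = 9.46e-06). *Pnpla5*, a lipase of the patatin family, was at 31.5 to 47.3 CPM in AMs and 0.738 to 1.25 CPM in CD11c- IMs (log2 fold change -5.35, SE 0.24, adjusted p = 5.82e-06). *Cpne5*, a copine, was at 146 to 163 CPM in AMs and 1.95 to 5.16 CPM in CD11c- IMs (log2 fold change -5.30, SE 0.29, adjusted p = 1.17e-05). *Vstm2a*, an immunoglobulin-domain protein, was at 68.3 to 82.4 CPM in AMs and 0.706 to 3.01 CPM in CD11c- IMs (log2 fold change -5.41, SE 0.34, adjusted p = 1.7e-05).

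Transcripts that mark other cells were higher in CD11c- IMs on nearly every list and were kept apart from the macrophage genes. Of 207 such genes 195 were in the table, and 171 were higher and 7 lower, with a median log2 fold change of 4.19, against 135 higher and 119 lower of 333 genes on macrophage lists, with a median of 0.08. Together they took 1.64% to 2.71% of the counted reads in CD11c- IM libraries, 0.208% to 0.252% in AM libraries and 0.397% to 1.08% in CD11c+ IM libraries. Their part in the macrophage results was not tested.

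**Figure D4:**
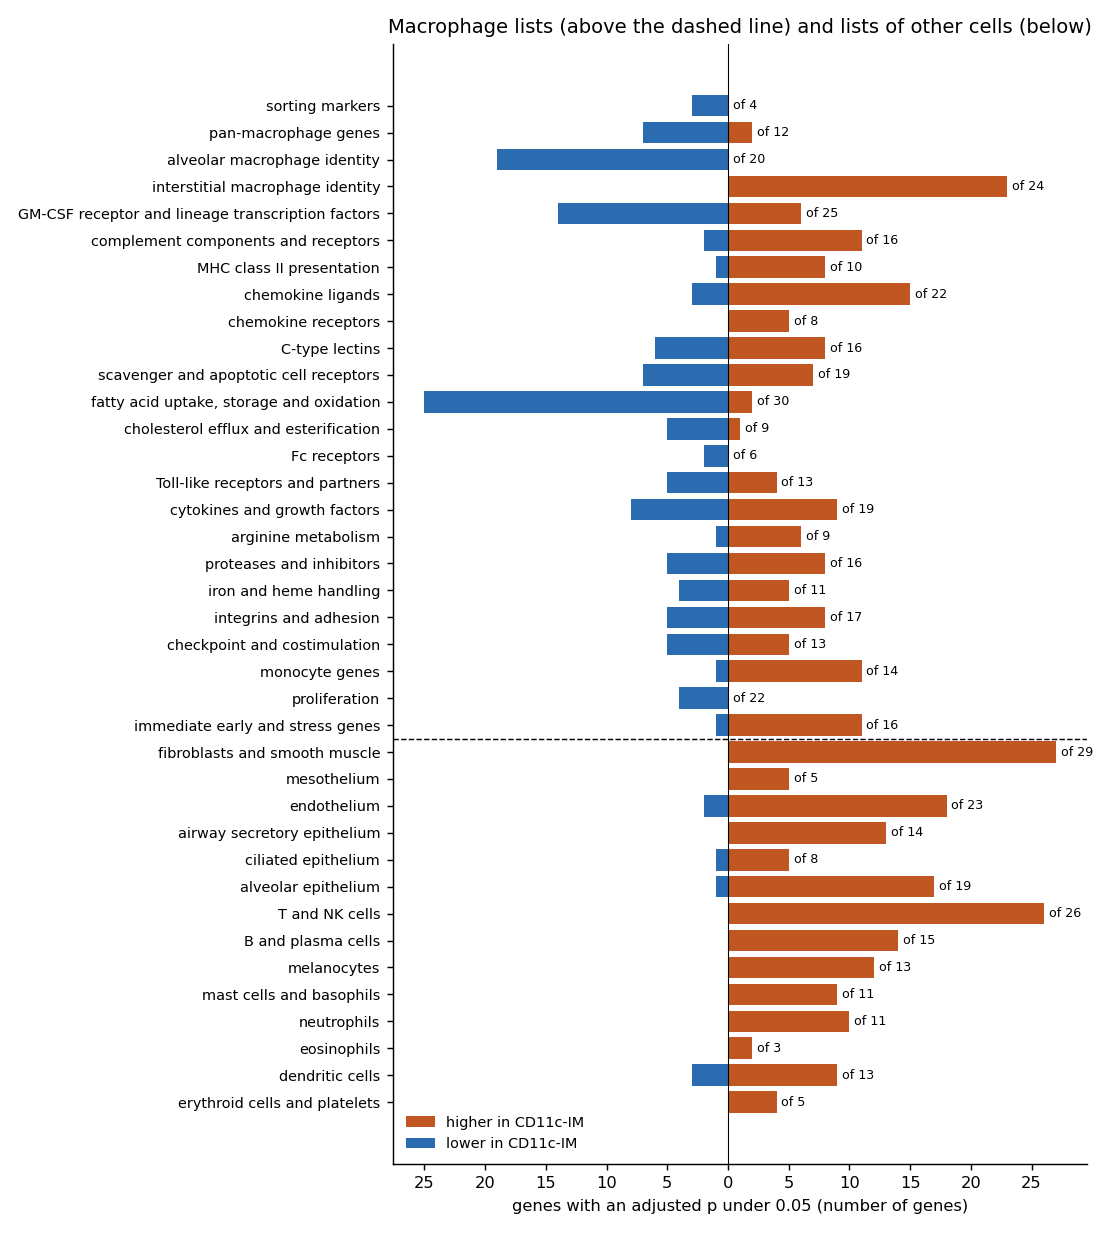
Number of genes of each list with an adjusted p under 0.05 in the 8 libraries, to the right where higher and to the left where lower in CD11c-IM, with the number tested beside the bar. Alveolar and fatty acid lists extend to the left (19 of 20 and 25 of 30 lower), interstitial macrophage genes (23 of 24) and the lists of other cells to the right.

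Fibroblast genes were higher at similar levels in the 4 CD11c- IM libraries. Of 29 fibroblast and smooth muscle genes, 27 were higher and 0 were lower. Their sum was 39.9, 33.3, 39.0 and 33.2 CPM in AMs and 1042, 1197, 1191 and 1581 CPM in CD11c- IMs. *Col3a1*, a chain of fibrillar collagen, stood at 3.87, 3.71, 1.90 and 4.19 CPM in AMs and 201, 239.9, 234 and 326 CPM in CD11c- IMs (log2 fold change 6.19, SE 0.32, adjusted p = 8.87e-06). *Dcn*, the matrix proteoglycan decorin, was at 1.02 to 1.67 CPM in AMs and 151 to 263 CPM in CD11c- IMs (log2 fold change 7.24, SE 0.27, adjusted p = 4.17e-06). All 5 mesothelial genes were higher, among them *Msln* at 0.0640 to 1.001 CPM in AMs and 12.0 to 32.3 CPM in CD11c- IMs (log2 fold change 5.40, SE 0.67, adjusted p = 0.0004). Endothelial genes had 18 higher and 2 lower of 23, and their sum was less even, at 521, 368, 1165 and 429.8 CPM in CD11c- IMs against 207 to 247 CPM in AMs. The lower ones were *Flt1*, a VEGF receptor, at 118, 129.9, 94.3 and 88.0 CPM in AMs and 5.55, 18.8, 14.1 and 23.2 CPM in CD11c- IMs (log2 fold change -2.82, SE 0.41, adjusted p = 0.000891), and *Vwf* (log2 fold change -2.02, SE 0.39, adjusted p = 0.00358). The defining gene *Cdh5* was at 0.276 to 1.09 CPM in AMs and 2.60 to 17.4 CPM in CD11c- IMs. *Ednrb*, an endothelin receptor, alone made up 41.9% of the summed endothelial genes in CD11c- IMs.

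Airway secretory and alveolar epithelial genes were higher with a wide spread. The airway secretory protein *Scgb1a1* stood at 6.93, 3.93, 17.8 and 10.9 CPM in AMs and 333, 1359, 3459 and 2166 CPM in CD11c- IMs (log2 fold change 7.45, SE 0.56, adjusted p = 3.66e-05). In all, 13 of 14 genes of that list were higher. *Sftpc*, surfactant protein C of alveolar type II cells, was at 7.21, 7.38, 20.6 and 15.5 CPM in AMs and 137, 94.2, 2159 and 298 CPM in CD11c- IMs (log2 fold change 5.05, SE 0.74, adjusted p = 0.000925). Most of it was in the first CD11c- IM library labelled *Il9r-/-*. The alveolar epithelial list had 17 higher and 1 lower of 19. The lower one was *Epcam*, an adhesion protein, at 76.1 to 190.1 CPM in AMs and 5.86 to 9.81 CPM in CD11c- IMs (log2 fold change -4.05, SE 0.31, adjusted p = 4.19e-05). Of 8 ciliated cell genes, 5 were higher and 1 was lower, the lower one being *Tppp3*, a tubulin-binding protein (log2 fold change -1.04, SE 0.17, adjusted p = 0.00158). With the filter of a CPM of at least 5, 0 ciliated genes were higher. The ciliated list summed to 157 to 257 CPM in CD11c- IMs, most of it *Tppp3*, against 309 to 412 CPM in AMs.

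Lymphocyte genes separated the libraries by number. All 26 T and NK cell genes were higher in the 8 libraries, 12 of them in both genotypes. Their sum was 53.7, 75.9, 41.0 and 71.9 CPM in AMs and 255, 1313, 271 and 1232 CPM in CD11c- IMs. *Lck*, a T cell kinase, stood at 8.34, 11.2, 6.27 and 9.34 CPM in AMs and 40.7, 188, 37.3 and 159 CPM in CD11c- IMs (log2 fold change 3.602, SE 0.59, adjusted p = 0.00162). Of 15 B and plasma cell genes, 14 were higher, with a sum of 268, 277, 236 and 288 CPM in AMs and 406, 2484, 325 and 1650.2 CPM in CD11c- IMs. *Cd79a*, a chain of the B cell receptor, stood at 7.29, 15.4, 6.43 and 10.3 CPM in AMs and 54.2, 412, 53.2 and 241 CPM in CD11c- IMs (log2 fold change 4.25, SE 0.74, adjusted p = 0.00211). In CD11c- IMs the libraries numbered 2 had the higher sums for both lists in both genotypes.

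Granulocytes followed a similar order. The summed neutrophil genes stood at 545, 689, 655 and 848 CPM in AMs and 615, 5202, 3792 and 9666 CPM in CD11c- IMs. WT CD11c- IM 1 was within the range of AMs. *S100a8* and *S100a9*, alarmins of neutrophils and monocytes, were at 18.8 to 48.7 and 10.5 to 63.8 CPM in AMs and 86.6, 834, 673 and 1749.6 CPM and 105, 969, 859 and 2292 CPM in CD11c- IMs (log2 fold changes 4.53 and 4.86, adjusted p = 0.00139 and 0.00144). Of 11 mast cell and basophil genes, 9 were higher. *Hdc*, histidine decarboxylase, was at 3.37, 17.9, 11.0 and 23.9 CPM in AMs and 43.4, 377, 245 and 734 CPM in CD11c- IMs (log2 fold change 4.56, SE 0.84, adjusted p = 0.00282). *Hdc* made up 80.2% of the summed mast cell and basophil genes in CD11c- IMs. Its CD11c- IM values had the same order as the summed neutrophil genes, whose part in it was not tested. Dendritic cell genes had 9 higher and 3 lower of 13. *Ccr7*, the receptor by which dendritic cells reach lymph nodes, stood at 15.05, 32.5, 10.2 and 23.1 CPM in AMs and 97.5, 719, 99.4 and 328 CPM in CD11c- IMs (log2 fold change 3.89, SE 0.71, adjusted p = 0.00259). *Ly75*, the endocytic receptor DEC-205, was lower (log2 fold change -4.35, SE 0.30, adjusted p = 2.63e-05). The lists of eosinophils and of erythroid cells and platelets had 2 of 3 and 4 of 5 genes higher, of 5 and 11 listed. Without the second AM library labelled *Il9r-/-* 0 eosinophil genes passed, and 1 without any 1 of 5 others, while 2 erythroid genes passed without WT AM 1, WT AM 2, WT CD11c- IM 2 or the second CD11c- IM library labelled *Il9r-/-*.

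Melanocyte genes were present beside the macrophage genes, in lungs that carried a melanoma. Of 13, 12 were higher and 0 were lower, all 12 in both genotypes. *Dct*, dopachrome tautomerase, stood at 112, 40.6, 31.6 and 20.03 CPM in AMs and 3291, 1193, 3109.7 and 1232 CPM in CD11c- IMs (log2 fold change 5.63, SE 0.64, adjusted p = 0.000263). *Tyrp1* was at 111, 44.7, 23.8 and 20.4 CPM in AMs and 2757, 1049, 2214 and 1077 CPM in CD11c- IMs (log2 fold change 5.41, SE 0.59, adjusted p = 0.000205). In CD11c+ IMs *Dct* stood at 265, 119, 15.4 and 52.8 CPM. In bulk libraries melanoma cells and macrophages that had taken up tumor material cannot be told apart.

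The CD11c- IM libraries differed among themselves along the number in their label. The summed IM genes were 32207, 13052, 32986 and 16877 CPM and the melanocyte genes 9383, 3674, 7962 and 3592 CPM, in both cases higher in the libraries numbered 1 of either genotype. The summed T and NK, B and dendritic cell genes were higher in the libraries numbered 2, the last being mostly *Ccr7*. Fibroblast genes ranged only from 1042 to 1581 CPM. In AM libraries the IM genes summed to 2676, 2567, 2580.1 and 2809.8 CPM. The AM sums of melanocyte genes, 368, 158, 113 and 89.7 CPM, and of T and NK genes, given above, followed the same order by number within each genotype at lower levels. Leaving out both CD11c- IM libraries numbered 2, an alternative chosen after the data were seen, gave 3866 higher and 3145 lower genes, with 24 of 24 IM genes higher, 19 of 20 AM genes lower, 21 of 26 T and NK genes higher and 10 of 11 neutrophil genes higher.

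**Figure D5:**
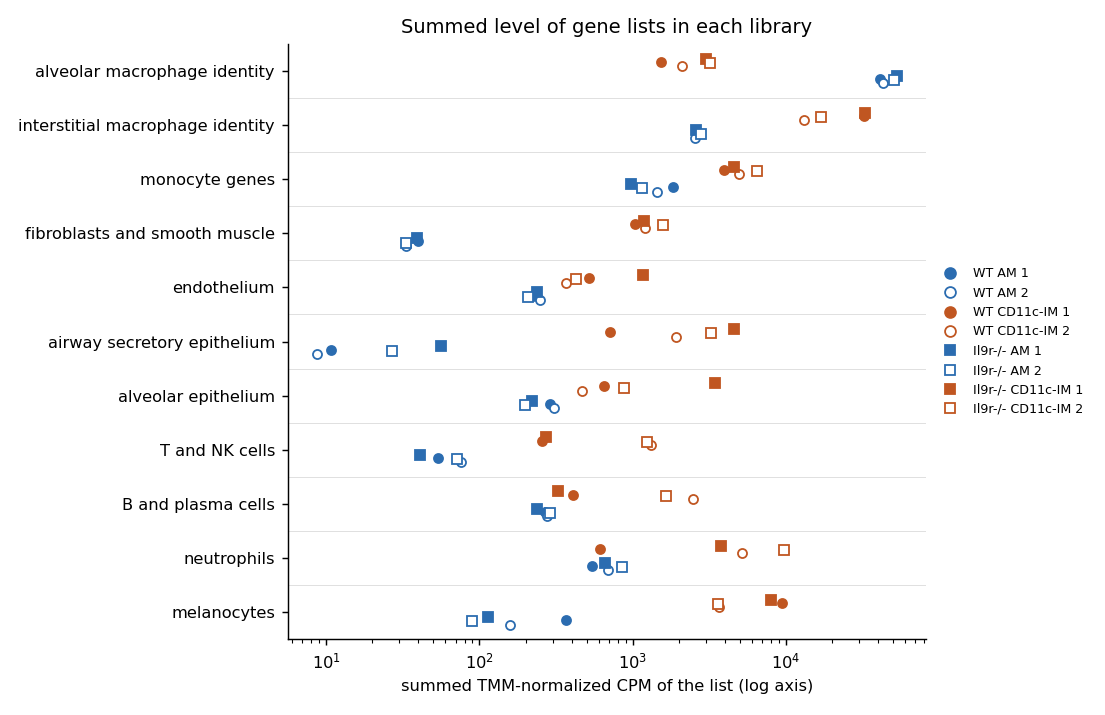
Summed TMM-normalized CPM of 11 gene lists on a log axis in each of the 8 libraries, with AM in blue, CD11c-IM in orange, circles for WT, squares for libraries labelled Il9r-/-, filled symbols for libraries numbered 1 and open symbols for those numbered 2. In CD11c-IM the open symbols lie to the right for lymphocytes (255 to 1313 CPM for T and NK cells) and to the left for IM and melanocyte genes, while fibroblast genes differ little.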

How the data were processed

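Total RNA of sorted macrophages was amplified with SMART-Seq v4, made into Nextera XT libraries and sequenced paired-end on a NovaSeq. The authors aligned the reads with STAR (version 2.5) to mm10, assigned them to genes with featureCounts (Subread version 1.5.1, reverse-stranded mode), and deposited whole-number counts for the genes that passed their filter on low CPM. The kit does not mark strand, so reads of overlapping genes cannot be told apart. The authors also deposited log2 FPKM values, which were used by no test, and fold changes, p-values and false discovery rates of their own comparisons, which were not used. Sample columns were matched to labels by name, and 0 columns were left unmatched.

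Counts of the 4 CD11c- IM and 4 AM libraries were normalized by TMM and fitted with edgeR 4.0.16 (robust quasi-likelihood F test, two-sided, genotype + population) in R 4.3.3, and p-values were adjusted by Benjamini-Hochberg over all 14648 genes. Comparisons within a genotype and the interaction came from a fit of the 4 groups. The SE is the log2 fold change divided by the root of F. Residual degrees of freedom were 5 and 4. Summaries and plots used Python 3.11.15, pandas 2.3.3, numpy 2.4.6 and matplotlib 3.10.9, and alternatives used DESeq2 1.42.0. On simulated counts for this comparison over 14648 genes, 50% of 100 genes changed 2-fold and 89% of 100 changed 4-fold were recovered, with 5 false calls. The changed genes all had a mean above 5 CPM and were far fewer than the 4047 higher and 2895 lower genes of the data. These rates may therefore not hold for the data. Each library held at least 30259066 counted reads, and each group 2 libraries.

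The members and gene lists were chosen with earlier results of these data known. Named were the called members with the highest mean CPM. For each of the 24 macrophage lists these were up to 3 higher and 3 lower. For each of the 14 lists of other cells they were 2. Named too were the 8 genes with the largest difference in each direction that were on no list of other cells. These were called in both genotypes without overlap and had a mean of at least 20 CPM in the higher population. The sorting markers, *Il9r*, *Arg1* and sex-linked genes were also named. The following were named after their values were seen: *Adgre1*, *Marco*, *Il18*, *Maf*, *Trem2*, *Csf2rb*, *Csf2rb2*, *Pparg*, *Zeb2*, *Irf8*, *Klf4*, *Id2*, *Runx3*, C3, *C4b*, *C3ar1*, *C5ar1*, *Vsig4*, *Serping1*, *Cxcl13*, *Mrc1*, *Pros1*, *Timd4*, *Abca1*, *Il1a*, *Il6*, *Il10*, *Tnf*, *Hmox1*, *Cdh5*, *Vwf* and *Epcam*. Same-numbered AM and CD11c- IM libraries deviated together from their group means (r = 0.30 in WT and 0.16 in the libraries labelled *Il9r-/-*, over 10221 genes with a mean of at least 5 CPM), and the sex-linked genes followed the number, so the number was taken to pair libraries in the alternative with a block. The values of some genes that the rule names are not reported here. Other alternatives were other scalings and tests, a filter on low CPM, all 12 libraries, and leaving out libraries.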

Additional observations from a re-analysis of the deposited data

Results flagged for a closer look

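In groups of 4 libraries a gene or list sum was looked at more closely where 1 library stood apart from the other 3 by Dixon's criterion, which chance meets in about 1 of 20 groups. The 388 groups looked at gave 26 such values. Among AM libraries, the first labelled *Il9r-/-* was low for *Aif1* (0.5268 CPM) and *Itgam* (7.007 CPM) and apart for the summed scavenger and apoptotic cell receptors (6444.0 CPM), the second was apart for *Myd88* (367.5 CPM), WT AM 2 was high for *Abcg1* (1073.0 CPM) and *Nceh1* (772.9 CPM), and WT AM 1 was apart for the summed proteases and inhibitors (33780.0 CPM).

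Among CD11c- IM libraries, the first labelled *Il9r-/-* was high for the epithelial and mesothelial genes *Sftpc* (2159.0 CPM), *Tmem212* (6.136 CPM) and *Msln* (32.28 CPM), for the summed alveolar epithelial genes (3450.0 CPM) and for *Plet1* (105.6 CPM). The second labelled *Il9r-/-* was high for *Csf2ra* (399.3 CPM), *Osm* (491.9 CPM), *Itgam* (639.5 CPM) and the summed cytokines and growth factors (6247.0 CPM), and low for *Tlr1* (32.97 CPM). WT CD11c- IM 1 stood apart for *Cx3cr1* (106.3 CPM) and *Upk3b* (19.2 CPM), and WT CD11c- IM 2 was low for *Cst3* (1013.0 CPM). The libraries numbered 1 of WT stood apart for the sex-linked genes, with *Xist* at 27.36 CPM in AM and 12.09 CPM in CD11c- IM, *Ddx3y* at 0.1657 and 0.2493 CPM, *Kdm5d* at 0.06233 CPM in CD11c- IM and *Uty* at 0.1104 CPM in AM.

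By DESeq2 the difference between populations depended on the genotype label for 10 genes, given as the log2 fold change in the libraries labelled *Il9r-/-* minus that in WT. It was 2.065 for *H2-Aa*, 1.833 for *Cd74*, 1.968 for *H2-Ab1* and 1.805 for *H2-Eb1*, 2.489 for *Mfsd6*, 2.078 for *Matk*, -1.966 for *Wdfy1*, 4.974 for *Dynlt1b*, 3.726 for *Tmem181b-ps* and 1.508 for *Irgm2*. By edgeR none of the 14648 genes passed, with 351 at an unadjusted p under 0.05, fewer than chance alone would give.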

How the results depend on the processing

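Of 156 named genes, the 149 that passed kept their direction under every alternative that gave a value. The number of calls held less well. With a CPM of at least 5, 2575 genes were higher, and against a difference of 1 log2 unit (glmTreat) 2588 were higher and 781 lower, 1244 and 515 in WT, 1689 and 452 in the libraries labelled *Il9r-/-* and 1104 and 403 in both. With library totals 1553 were lower, 905 in WT, 902 in the libraries labelled *Il9r-/-* and 740 in both. DESeq2 found 10 genes whose difference depended on genotype. Without both WT libraries numbered 1, 554 were higher and 478 lower in WT and 552 and 476 in both genotypes. Without both CD11c- IM libraries numbered 2, chosen after seeing the data, 2964 were lower in WT, 2792 in the libraries labelled *Il9r-/-* and 2077 in both, and 50 depended on genotype. The cause of these moves was not tested, beyond the smaller number of genes or libraries that an alternative leaves.

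Leaving out 1 library gave 3320 to 4074 higher and 2220 to 3204 lower genes, 697 to 2128 and 593 to 1765 in WT, 972 to 2834 and 584 to 2034 in the libraries labelled *Il9r-/-*, and 690 to 1674 and 565 to 1386 in both. A genotype then rests on a lone AM or CD11c- IM library, assumed to vary as the others do. In all, 14 named genes lost their call without at least 1 library: *Ccr3*, *Cfb*, *Clec4a3*, *Cxcl3*, *Fcer1g*, *Igf1*, *Il5ra*, *Itga4*, *Lgmn*, *Mcm4*, *Myd88*, *Scd1*, *Tgfb1* and *Tlr13*. Of 76 list counts, 14 moved by over 1.5 times, all of them counts of 8 or fewer. With the library number as a block 3934 were higher and 2858 lower, 2054 and 1448 in WT, 2507 and 1340 in the libraries labelled *Il9r-/-* and 1861 and 1115 in both, *Fcer1g* and *Tlr13* lost and *Uty* gained a call, and no other named gene changed its call. The 2 libraries of a group limit the size of a difference that can be shown.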
